A study of Peromyscus californicus with 17 samples.

Results

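The airway secretory genes described here are the secretoglobins Scgb1a1, Scgb3a1 and Scgb3a2, the BPI-fold proteins Bpifa1 and Bpifb1, the gel-forming mucins Muc5b and Muc5ac, and the mucin-folding enzyme Agr2. They were chosen by name, as genes that mark the club and goblet cells of the airway lining. Of the 8 genes, 7 had a row among the 27786 genes of the expression table; no row carried the symbol Bpifa1, and it was not analysed here. Whole lungs of 17 male California mice (Peromyscus californicus, stock IS), a rodent in which both sexes form lasting pair bonds, had been sequenced as RNA. The 6 bonded males (B1 to B6) had lived with a female for 4 months, the 6 bond-disrupted males (BD1 to BD6) had been paired for 4 months and were sampled on day 7 after the bond was broken, and the 5 virgin males (V2 to V6) were kept 3 to a cage according to the labels. No transgene or agent is given for any animal, all were adults, and animals with the same number came from 1 family (siblings, with 2 of the virgins being cousins), so they were not fully independent of each other.

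Club cells and goblet cells are the secretory cells of the conducting airways, where they lie beside ciliated cells. Club cells release small secreted proteins of the secretoglobin family, of which Scgb1a1 is the classic marker, and they can give rise to goblet and ciliated cells. Goblet cells are known for storing the large mucins that form the mucus gel, and rodents have few of them in the small airways unless the lung is inflamed. BPI-fold proteins are secreted into the airway surface liquid and take part in its defence. Because each sample was a piece of whole lung, fewer cells of a type and less RNA per cell cannot be told apart.

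The levels are given as FPKM, a read count scaled to the length of the gene and the depth of the library. The deposited FPKM had been divided by the length of another gene in each column, shifted by 1 row from column to column, so every value was recomputed with the gene's own length before animals were compared. Scgb3a2 shows the size of the effect. The deposited 4279 FPKM in V4 rested on a length of 119 bases, and the deposited 9.86 FPKM in BD2 rested on 4246 bases, while the gene's own length was 279 bases. With that length Scgb3a2 was at 1825 FPKM in V4 and at 150 FPKM in BD2. The depth behind the FPKM, solved from the values, was 30788496 to 68231985 reads in bonded, 43859799 to 59397200 reads in bond-disrupted and 37963836 to 44895930 reads in virgin animals. These depths are divisors that may be scaled library sizes and not exact totals, and the recovered reads sum to between 0.968 and 1.03 of them. Labels gave no batch or date. B6 stood apart in its other cell types, with the highest value of the series for 7 of 8 smooth muscle and 6 of 7 cardiac muscle markers and the lowest mean log2(FPKM + 1) of the type 1 and type 2 alveolar markers (7.33 and 8.10). B6 and V4 were each highest for 11 of 26 ciliated markers. BD6 stood at the other end, with the highest mean log2(FPKM + 1) of the type 2 alveolar markers (9.19) and the lowest of the smooth muscle markers (4.71).

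**Figure D1:**
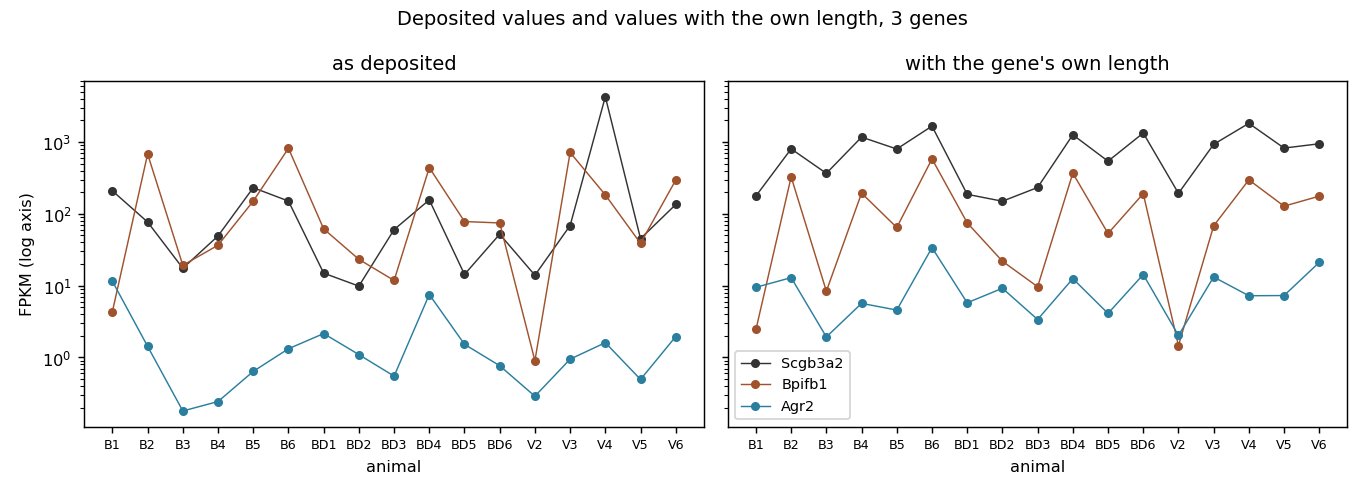
FPKM (log axis) of Scgb3a2, Bpifb1 and Agr2 in each of the 17 animals, as deposited (left) and with the gene's own length (right). On the right Scgb3a2 lies between 150 and 1825 FPKM and above Bpifb1 in all 17 animals, whereas on the left the order of the 3 genes changes from animal to animal.

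Scgb1a1, the main secreted protein of club cells, was the most abundant transcript of the lung. Its mean of 92786 ± 34479 FPKM (SD, n = 17) ranked 1 among the 25412 genes whose values were recovered in full, and its reads made up 1.43% to 5.00% of the depth of a library. In bonded animals the lowest level was 49032, the median 90182 and the highest 130215 FPKM. In bond-disrupted animals the lowest level was 61413, the median 74201 and the highest 118800 FPKM. The virgin animals had 53667 (V2), 87062 (V3), 131230 (V4), 83210 (V5) and 171963 FPKM (V6). All 3 groups overlapped, and the highest and lowest animal of the series differed by 3.51-fold.

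Scgb3a2, a secretoglobin of the conducting airways, was the next in level at 790 ± 537 FPKM (SD, n = 17). The bonded animals had a lowest level of 178, a median of 802 and a highest level of 1668 FPKM. The bond-disrupted animals had a lowest level of 150, a median of 387 and a highest level of 1337 FPKM. Among virgins Scgb3a2 stood at 193 (V2), 930 (V3), 1825 (V4), 825 (V5) and 947 FPKM (V6). The bond-disrupted group held both 3 of the 5 lowest animals (BD1 at 187, BD2 at 150 and BD3 at 233 FPKM) and 2 of the 4 highest (BD4 at 1263 and BD6 at 1337 FPKM), so it ran from the lowest level of the series to close to the highest.

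Scgb3a1, a secretoglobin made mostly by secretory cells of the larger airways, varied far more than Scgb1a1. It ranged from 2.02 FPKM (26 reads) in B1 to 329 FPKM (5066 reads) in B2, a 163-fold range, and both ends of this range were bonded animals. The bonded median was 35.5 FPKM. The bond-disrupted animals had a lowest level of 5.75 (BD2), a median of 29.4 and a highest level of 197 FPKM (BD6). The virgin levels were 2.65 (V2), 3.05 (V3), 72.0 (V4), 86.0 (V5) and 22.0 FPKM (V6). Every group thus held animals under 10 and animals over 70 FPKM, and the groups overlapped.

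Bpifb1, a BPI-fold protein that secretory cells release into airway mucus, had the widest range among the secretory genes chosen here that had reads in every animal. It reached 583 FPKM (43764 reads) in B6 and 1.46 FPKM (106 reads) in V2, a 398-fold difference. In bonded animals the lowest level was 2.45 (B1), the median 130 and the highest 583 FPKM. In bond-disrupted animals the lowest level was 9.67 (BD3), the median 64.2 and the highest 369 FPKM (BD4). The virgins had 1.46 (V2), 68.2 (V3), 298 (V4), 128 (V5) and 177 FPKM (V6). The depths of B6 and V2 were close to each other, at 45529563 and 43889121 reads.

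The mucins were low. Muc5b, the mucin that airways make in the resting state, was at 1.76 ± 2.41 FPKM (SD, n = 17). The bonded animals had a lowest level of 0.076 (B1), a median of 2.07 and a highest level of 9.80 FPKM (B6), with B2 at 4.73 and B4 at 2.99 FPKM. The bond-disrupted animals had a lowest level of 0.074 (BD2), a median of 0.75 and a highest level of 2.40 FPKM (BD6). Virgin levels were 0.12 (V2), 0.87 (V3), 0.89 (V4), 1.51 (V5) and 0.71 FPKM (V6), all within the bonded range. Muc5ac, the mucin that goblet cells add in inflamed airways, had 0 to 38 reads in a library and at most 0.077 FPKM (B6). It had no read in B1 and V3. Most fragments count as 2 reads here, so a count of 0 allows up to 3 fragments or 6 reads, which is 0.017 FPKM in B1 and 0.012 FPKM in V3, for counting error only. It was therefore below the 1 FPKM that the group test required.

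Agr2, a protein disulfide isomerase of the endoplasmic reticulum that helps mucins fold, was at 9.92 ± 8.01 FPKM (SD, n = 17). The bonded animals had a lowest level of 1.93 (B3), a median of 7.59 and a highest level of 33.9 FPKM (B6). The bond-disrupted animals had a lowest level of 3.38, a median of 7.49 and a highest level of 14.3 FPKM. The virgins had 2.03 (V2), 13.2 (V3), 7.24 (V4), 7.29 (V5) and 21.1 FPKM (V6). The 3 groups overlapped here too.

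**Figure D2:**
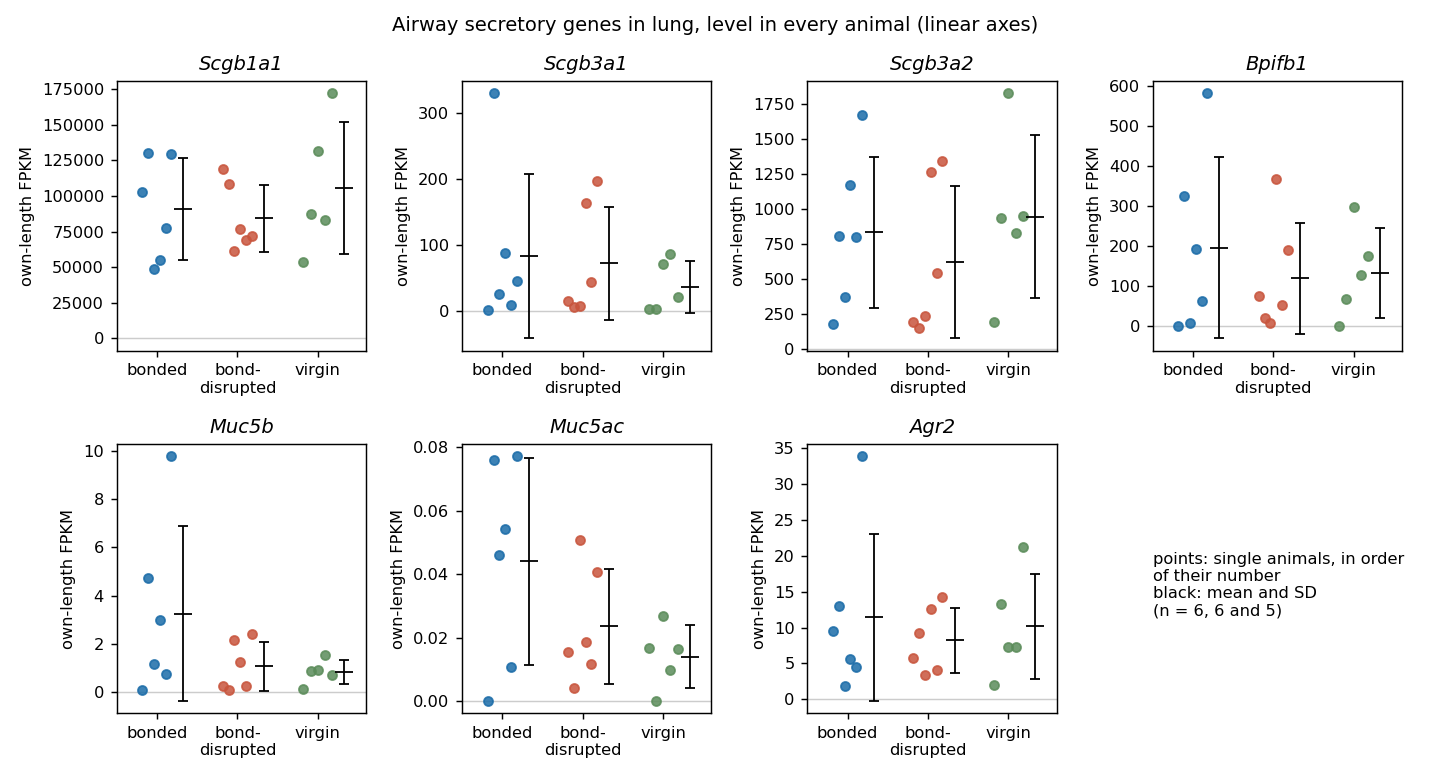
Own-length FPKM of the 7 genes in every animal (points), on linear axes, with the mean and SD of each group (n = 6 bonded, 6 bond-disrupted and 5 virgin). The 3 groups overlap for every gene, and the highest animal for Bpifb1, Muc5b, Muc5ac and Agr2 is B6.

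On the length-corrected scale the order of the levels was Scgb1a1, Scgb3a2, Bpifb1, Scgb3a1, Agr2, Muc5b and Muc5ac. Scgb1a1 exceeded Scgb3a2, Scgb3a2 exceeded Bpifb1, Agr2 exceeded Muc5b, and Muc5b exceeded Muc5ac in 17 of 17 animals. In an exact permutation test of the differences within animals (sign flips of log2(FPKM + 1), two-sided), each of these 4 steps had p = 1.53e-05, the smallest p that 17 animals can give, and 2.29e-05 adjusted over the 6 steps. Bpifb1 exceeded Scgb3a1 in 13 animals (exact permutation p = 0.0047, adjusted 0.0056) and Scgb3a1 exceeded Agr2 in 14 animals (exact permutation p = 0.0056, adjusted 0.0056). These 2 steps held on average but not in each lung. The order was taken from the mean levels of these same 17 animals, so the p-values are no independent test of it. The sign flips also treat relatives as independent animals.

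The groups were compared to ask whether bonding history changed these genes, with limma over all genes on log2(FPKM + 1), the 3 groups in 1 fit and p adjusted by Benjamini-Hochberg. A gene was called where the adjusted p was below 0.1 and the groups differed at least 2-fold. None of the 6 secretory genes tested was called in any comparison, where the background was 0 of 15074 genes called (0.0%) between bond-disrupted and bonded, 0.0% between virgin and bonded and 0.0% between virgin and bond-disrupted animals. limma's F test over the 3 groups also called 0.0%. At an unadjusted p under 0.05, limma counted 887 genes (5.88%), 537 genes (3.56%) and 634 genes (4.21%) in the 3 comparisons and 656 genes (4.35%) in the F test, and 0 of the 6 secretory genes in the 3 comparisons. limma's voom on recovered reads called 0 genes as well. Muc5ac, which that test kept, had log2 fold changes of -0.56 (SE 0.92), -1.50 (SE 1.10) and -0.94 (SE 1.12) in the 3 comparisons, with adjusted p from 0.953 to 0.999.

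Muc5b had the lowest unadjusted p of the secretory genes in both comparisons with bonded animals (0.122 and 0.110 in limma, over 17 animals). Its mean was 3.24 ± 3.63 FPKM (SD, n = 6) in bonded, 1.06 ± 1.03 (n = 6) in bond-disrupted and 0.82 ± 0.50 (n = 5) in virgin animals. limma gave a log2 fold change of -0.77 (SE 0.47, 95% interval -1.77 to 0.23, adjusted p = 0.879) for bond-disrupted against bonded animals. For virgin against bonded animals it was -0.84 (SE 0.50, 95% interval -1.89 to 0.21, adjusted p = 1). The difference was within the spread between animals, and without B6 the log2 fold changes were -0.42 and -0.48. At so low a level the pseudocount of 1 also shrinks the value, and with a pseudocount of 0.1 they were -1.24 (SE 0.91) and -1.15 (SE 0.96), and with voom -1.45 (SE 1.10) and -1.31 (SE 1.16), none of them called. Over all 31 other settings the first comparison ran from -1.45 to 0.054 (lowest limma adjusted p 0.583) and the second from -1.82 to -0.48.

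For Scgb3a2 limma gave a log2 fold change of -0.63 (95% interval -2.05 to 0.80) for bond-disrupted against bonded and 0.84 (95% interval -0.66 to 2.33) for virgin against bond-disrupted animals. Leaving out 1 animal moved the first to between -1.005 (without B1) and -0.33 (without BD2), and the second to between 0.52 (without V4) and 1.33 (without V2). Scgb1a1 had the narrowest intervals, from -0.68 to 0.58 for bond-disrupted against bonded and from -0.46 to 0.87 for virgin against bonded animals. For virgin against bond-disrupted animals the interval was -0.41 to 0.91. The width depended on the variance model, since with a variance trend in limma the SE rose from 0.30 to 0.55 and from 0.31 to 0.58 in the comparisons with bonded animals, and the log2 fold change of virgin against bonded animals was 0.42 without V2. Bpifb1 had log2 fold changes of -0.02, -0.01 and 0.01, but single animals moved them far. Bond-disrupted against bonded animals was -0.87 without B1 and 0.61 without B6, and virgin against bonded animals was -0.86 without B1 and 1.17 without V2. Its intervals reached about 3 log2 units to either side (-2.92 to 2.87 for bond-disrupted against bonded), so that these 17 lungs could not have shown a difference of several fold. Scgb3a1 was nearly as uncertain, with log2 fold changes of 0.06, -0.79 and -0.85 and an interval of -3.50 to 1.80 for virgin against bond-disrupted animals. Its value for bond-disrupted against bonded animals was -0.62 without B1 and 0.73 without B2. Agr2 differed by -0.13, 0.02 and 0.15 with intervals within -1.30 and 1.38, and its direction turned on single animals. Bond-disrupted against bonded animals was 0.26 without B6 and -0.46 without B3, virgin against bonded animals was 0.41 without B6, 0.42 without V2 and -0.31 without B3, and virgin against bond-disrupted animals was 0.55 without V2 and -0.17 without V6.

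**Figure D3:**
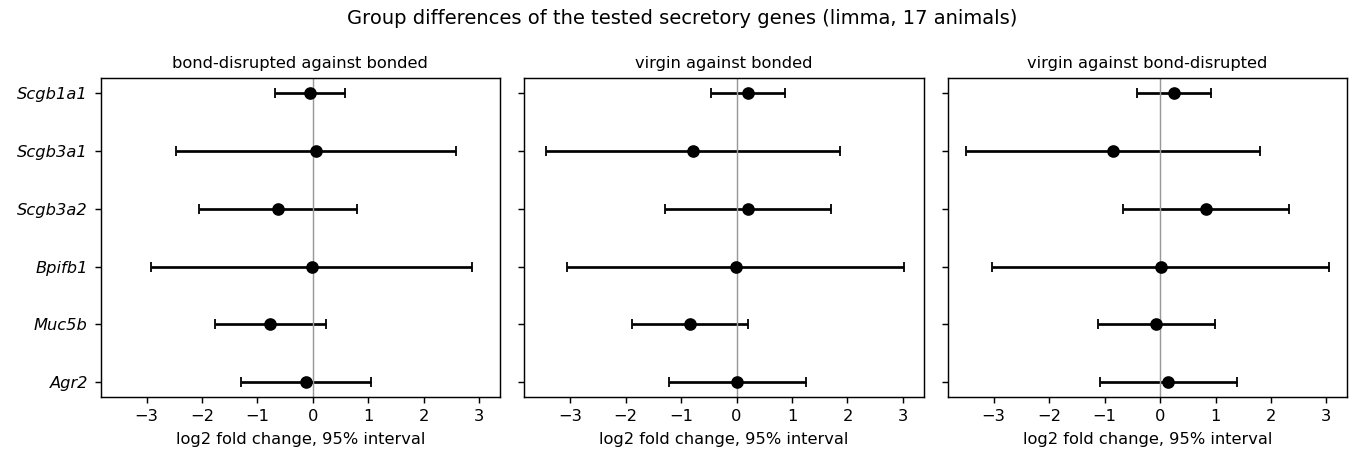
Log2 fold change with its 95% interval (limma, log2(FPKM + 1), 17 animals) of the 6 secretory genes tested, in the 3 comparisons. Every interval crosses 0, and the widest are those of Bpifb1 and Scgb3a1.

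The variation between lungs was large for these genes compared with other genes, and little of it lay between the groups. The SD of log2(FPKM + 1) over the 17 animals was 2.40 for Bpifb1, which ranked 5 among the 15074 genes tested, and 2.13 for Scgb3a1, which ranked 13. The median gene had an SD of 0.21. Scgb3a2 (SD 1.23), Agr2 (0.97) and Muc5b (0.91) ranked 95, 203 and 241. Scgb1a1, at 0.53, ranked 1229. Differences between group means made up 18.7% of the variance of Muc5b, 8.78% for Scgb3a2, 4.29% for Scgb1a1, 3.30% for Scgb3a1, 0.513% for Agr2 and 0.0020% for Bpifb1. With 17 animals in 3 groups these shares are descriptions and were not tested beyond the comparisons above.

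The secretory genes were then compared with each other across the 17 animals, to see whether a lung high in 1 of them was high in the rest. Pearson's r of log2(FPKM + 1) was positive for 20 of the 21 pairs. After Benjamini-Hochberg adjustment over the 21 pairs, 13 had a permutation p (100000 resamples, two-sided) under 0.1, all of them positive. Among all genes with a mean of at least 1 FPKM, the share with r over 0.5 ran from 1.45% for Scgb3a1 to 10.8% for Scgb1a1. Among the other members at that level it was 1 of 5 for Scgb1a1, 3 of 5 for Scgb3a1 and 4 of 5 for Scgb3a2 and Bpifb1. The share of all gene pairs called was not computed. With the group means subtracted, so that differences between group means no longer counted, 13 pairs passed again, and without B6 10 pairs did. The permutations with subtracted means still ran over all 17 animals and not within groups. Animals of 1 family are not independent, and the p-values take no account of that.

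The closest pairs were Muc5b with Muc5ac, Scgb3a2 with Bpifb1, and Scgb3a1 with Bpifb1. Muc5b and Muc5ac, which lie side by side in the gene order, had r = 0.88 (permutation p = 2e-05, adjusted 0.00042; Spearman's rho = 0.77, permutation p = 0.00053), and r = 0.76 without B2 and B6, although Muc5ac rested on few reads. Scgb3a2 and Bpifb1 had r = 0.84 (permutation p = 6e-05, adjusted 0.00063; rho = 0.83, permutation p = 0.00014) and r = 0.83 without B1 and BD2. Scgb3a1 and Bpifb1 had r = 0.77 (permutation p = 0.0004, adjusted 0.0028; rho = 0.80, permutation p = 0.00023) and r = 0.71 without B1 and B2. Scgb3a1 and Scgb3a2 had r = 0.68 (permutation p = 0.0034, adjusted 0.012; rho = 0.68, permutation p = 0.0032) and r = 0.67 without B1 and B2.

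Muc5b was also related to the smaller secreted proteins. Its r was 0.60 with Scgb3a1 (permutation p = 0.0091, adjusted 0.0213; rho = 0.75, permutation p = 0.00084), 0.61 with Scgb3a2 (permutation p = 0.0081, adjusted 0.0213; rho = 0.68, permutation p = 0.0038) and 0.61 with Bpifb1 (permutation p = 0.0091, adjusted 0.0213; rho = 0.68, permutation p = 0.0039). Without the 2 animals farthest from the median of the other gene, these fell to r = 0.46, 0.50 and 0.50 (permutation p = 0.080, 0.057 and 0.059). Scgb3a1 with Muc5ac had r = 0.56 (permutation p = 0.0214, adjusted 0.045; rho = 0.60, permutation p = 0.0128) and r = 0.36 without B1 and B2 (permutation p = 0.187). Those 4 relations rest in part on B1 and on B2, BD2 or V2. Muc5b with Agr2 had r = 0.48 (permutation p = 0.0532, adjusted 0.0931; rho = 0.27, permutation p = 0.296) and r = 0.087 without B2 and B6, on which it rests.

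Scgb1a1 went with Agr2 and not detectably with the other secretoglobins. Scgb1a1 and Agr2 had r = 0.73 (permutation p = 0.0011, adjusted 0.0060; rho = 0.68, permutation p = 0.0033), and r = 0.60 without B3 and V6. Scgb1a1 had r = 0.097 with Scgb3a1 (permutation p = 0.71; rho = 0.076, permutation p = 0.77), 0.20 with Scgb3a2 (permutation p = 0.44; rho = 0.22, permutation p = 0.38) and 0.093 with Muc5b (permutation p = 0.72; rho = -0.059, permutation p = 0.82). Lungs of both kinds were seen. V4 ranked 2 for Scgb1a1 and 1 for Scgb3a2, B6 ranked 4 and 2, and V2 ranked 16 and 14. BD2 ranked 6 of 17 for Scgb1a1 and 17 for Scgb3a2, BD1 ranked 5 and 15, and B1 ranked 7 and 16, whereas B4 ranked 15 for Scgb1a1 and 5 for Scgb3a2. Bpifb1 had r = 0.47 to Scgb1a1 (permutation p = 0.0585, adjusted 0.0944; rho = 0.48, permutation p = 0.0520; r = 0.38 without B3 and V6, permutation p = 0.161) and 0.67 to Agr2 (permutation p = 0.0033, adjusted 0.012; rho = 0.63, permutation p = 0.0075; r = 0.74 without B1 and V2). Agr2 was also related to Scgb3a2, with r = 0.53 (permutation p = 0.0289, adjusted 0.0551; rho = 0.50, permutation p = 0.0417) and r = 0.70 without B1 and BD2 (permutation p = 0.0034). Whether the relations of Scgb1a1 with different genes differ from each other was not tested.

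**Figure D4:**
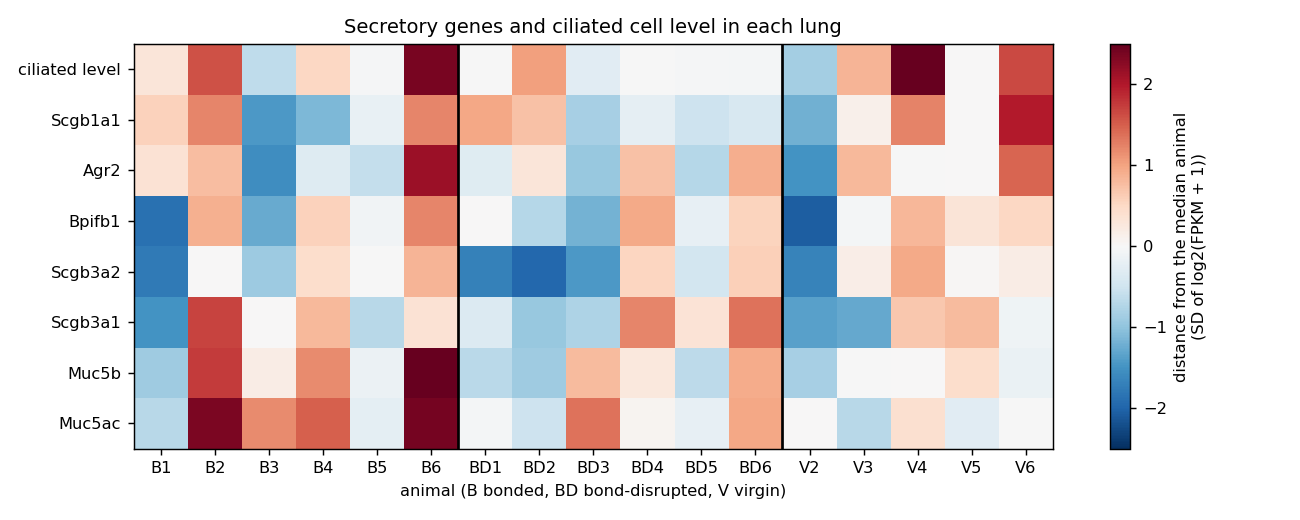
Distance of each animal from the median animal, in SD of log2(FPKM + 1), for the 7 secretory genes and for the mean level of the ciliated cell markers, with black lines between the bonded (B), bond-disrupted (BD) and virgin (V) animals. B6 and B2 are high, V2 and B3 are at or below the median for most genes, and B1 and BD2 are above the median for Scgb1a1 but among the lowest for Bpifb1 or Scgb3a2.

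Ciliated cells share the airway lining with secretory cells, so their markers were read as a rough measure of the conducting airway in a sample. The level used was the mean log2(FPKM + 1) of 26 of 28 listed genes, including Foxj1, the master regulator of motile cilia, at 29.8 ± 14.4 FPKM (SD, n = 17). Scgb1a1 followed this level with r = 0.80 (permutation p = 1e-04, adjusted 0.0007 over the 7 genes; rho = 0.84, permutation p = 6e-05), and r = 0.80 without B6 and V4. Agr2 had r = 0.71 (permutation p = 0.0017, adjusted 0.0058; rho = 0.67, permutation p = 0.0042), and r = 0.78 without the same animals. Bpifb1 had r = 0.62 (permutation p = 0.0084, adjusted 0.0196; rho = 0.62, permutation p = 0.0102; r = 0.51 without B6 and V4, permutation p = 0.0523). Scgb3a2 had r = 0.51 (permutation p = 0.0353, adjusted 0.0618; rho = 0.44, permutation p = 0.0812), and r = 0.28 without B6 and V4, so this relation rests on those animals. Without B6 alone 3 of the 7 genes were called, in place of 4. With group means subtracted Scgb3a2 no longer passed (adjusted permutation p = 0.11). Scgb3a1 (r = 0.26, permutation p = 0.31; rho = 0.22, permutation p = 0.40), Muc5b (r = 0.42, permutation p = 0.098; rho = 0.15, permutation p = 0.55) and Muc5ac (r = 0.30, permutation p = 0.247; rho = 0.034, permutation p = 0.90) were not called.

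**Figure D5:**
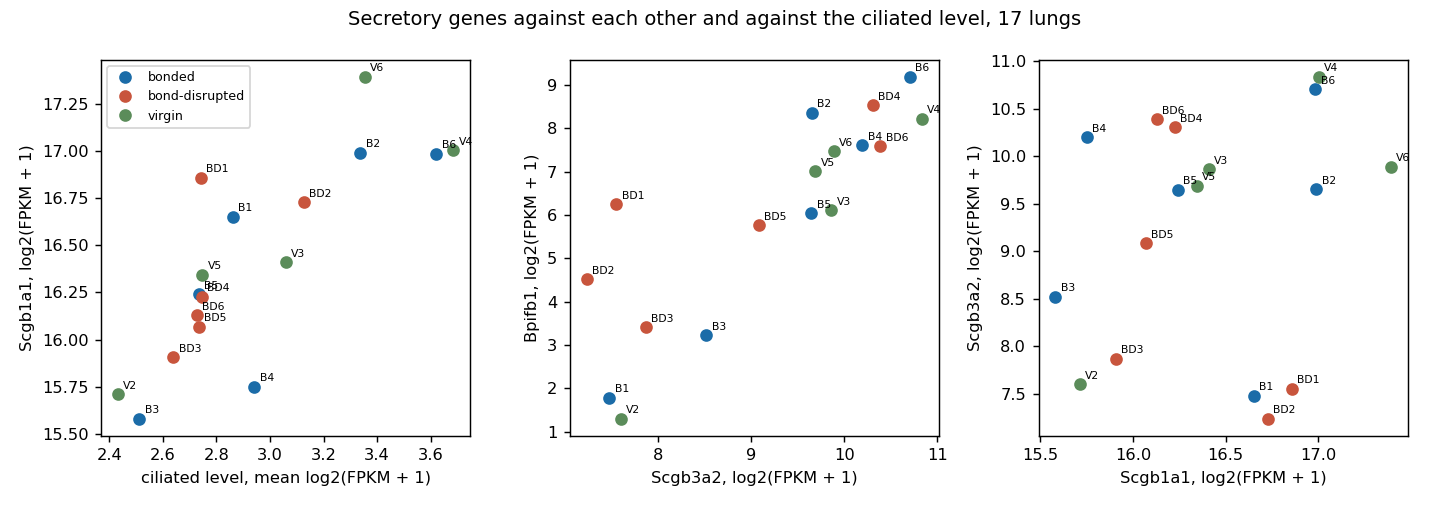
Scgb1a1 against the ciliated cell level (left), Bpifb1 against Scgb3a2 (middle) and Scgb3a2 against Scgb1a1 (right), all in log2(FPKM + 1), in 17 lungs coloured by group. The first 2 pairs rise together (r = 0.80 and 0.84), and in the last, where r = 0.20, B1, BD1 and BD2 lie far below the other lungs of like Scgb1a1.

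As a description over single marker genes, Scgb1a1 had a median r of 0.75 with 25 ciliated markers (range 0.41 to 0.86) and of -0.42 with 9 markers of type 2 alveolar cells, the surfactant-making cells of the air sacs, beside a median of 0.0065 over 13465 genes. Its median r was 0.46 with 8 smooth muscle markers, 0.55 with 5 cardiac muscle markers and -0.36 with 10 type 1 alveolar markers. With those type 1 markers the median r of the other members ran from -0.44 (Scgb3a1) to -0.48 (Muc5ac). Agr2 went with the cardiac muscle markers (median r 0.63, over 0.5 for 5 of 5) about as closely as with the ciliated markers (median r 0.64, over 0.5 for 20 of 25). Over all genes its median r was -0.040, and 6.07% of them were over 0.5. For Scgb3a1 the median r with the ciliated markers was 0.22, and with the smooth muscle markers 0.0023. These values share the same 17 libraries. The summed level of the ciliated markers was 346 to 697 FPKM in bonded, 327 to 529 in bond-disrupted and 305 to 804 in virgin animals, and that of smooth muscle markers 606 to 1423, 371 to 1199 and 602 to 996 FPKM. The part of the airway share of each sample in the levels above was not tested.

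The genes most like each secretory gene over the 17 animals were taken among genes with a mean of at least 1 FPKM, by Pearson's r, as a description. Nearest to Scgb1a1 were the uncharacterised LOC128095341 (r = 0.91, mean 788 FPKM), the transcription factor Myb (r = 0.90) and the replication licensing inhibitor Gmnn (r = 0.90), and 96 genes had an r over 0.8. Nearest to Bpifb1 were Gp2, a secretory granule membrane glycoprotein (r = 0.91, 9.96 to 222 FPKM), then Scgb3a2, then LOC128102167 (r = 0.84). LOC128102167 is an uncharacterised protein-coding gene that lies between Bpifa3 and Bpifb1 in the gene order of the annotation, with LOC128102166 between it and Bpifb1. The tables used here pair it with no other symbol, so whether it is Bpifa1, for which no row was found, is not known. It was abundant, at 718 FPKM on average, and ran from 3.00 FPKM (B3) to 2109 FPKM (BD4).

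Nearest to Scgb3a2 were Bpifb1, the chemokine-like membrane gene Cmtm3 (r = 0.84) and Gp2 (r = 0.82). Nearest to Scgb3a1 were the growth factor Ptn (r = 0.80), Bpifb1 and LOC128122548 (r = 0.76), with no gene over 0.8. Muc5b was most like Pdgfc (r = 0.79), a growth factor of the platelet-derived family, Il1rl1 (r = 0.79), the receptor of interleukin-33, and Jsrp1 (r = 0.78). Muc5ac was most like Muc5b, LOC128120536 (r = 0.77) and Noxa1 (r = 0.76). Agr2 was most like CUNH10orf67 (r = 0.88), the elongation factor Ell2 (r = 0.86) and CUNH9orf152 (r = 0.86). B6 was the highest lung for Muc5b, Muc5ac and Agr2, and also for Pdgfc, Il1rl1, LOC128120536, CUNH10orf67 and Ell2. Jsrp1, Noxa1 and CUNH9orf152 were highest in other lungs. The likenesses were not recomputed without B6.

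Other genes of the same cells were counted from fixed lists, and none was called in any comparison. Of the 21 transcription factors and signalling genes that direct secretory cells, 20 were tested, with median log2 fold changes of -0.05 (bond-disrupted against bonded), -0.0039 (virgin against bonded) and 0.03 (virgin against bond-disrupted). Over all genes these medians were 0.0054, 0.0053 and 0.0047. The lowest unadjusted p in the list was that of Klf5, an epithelial transcription factor, at 19.8 ± 3.08 FPKM in virgin (SD, n = 5) and 16.4 ± 1.89 in bonded animals (n = 6; limma adjusted p = 1).

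Of 21 mucus and secretory defence genes 13 were tested, with medians of -0.15, -0.11 and 0.01. Lcn2, an iron-sequestering defence protein, had the lowest p of this list. It stood at 31.7 ± 10.7 FPKM in bond-disrupted (SD, n = 6), 19.0 ± 3.16 in bonded (n = 6) and 16.9 ± 4.41 in virgin animals (n = 5). limma's adjusted p for Lcn2 was 0.807 against bonded and 0.946 for virgin against bond-disrupted animals, so that it was not called in either. Of 15 airway ion channel and membrane mucin genes 12 were tested, with medians of 0.13, 0.10 and -0.06, and Ano1, a chloride channel of airway epithelium and smooth muscle, was at 18.6 ± 5.18 FPKM in virgin (SD, n = 5) and 12.2 ± 2.50 in bonded animals (n = 6; limma adjusted p = 1).

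The club cell list could be read only in part, because 8 of its 22 genes had a row under the listed symbol and 6 were tested. Their medians were 0.02, 0.15 and 0.06. Selenbp1, a selenium-binding protein, was at 273 to 551 FPKM and the claudin Cldn10 at 27.3 to 49.8 FPKM over all animals, both with narrower ranges than those of Scgb3a1, Scgb3a2 or Bpifb1. The type 2 inflammation list holds signals that turn airway cells toward goblet cells, together with other genes of this inflammation such as Arg1, Postn and Gata3. It had 12 of 16 genes measured and 9 tested, with medians of -0.08, -0.07 and 0.02. Il4, Il13 and Il5 were not among the genes tested. The T helper 2 cytokines of the list were near 0, with Il13 at no more than 0.10, Il4 at no more than 0.16 and Il5 at no more than 0.49 FPKM in any animal. The epithelial alarmins were higher, with Il33 at 7.66 to 25.0, Tslp at 0.74 to 3.20 and Il25 at 0.68 to 1.38 FPKM.

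Marker lists of the other cells of a lung sample also had no gene called. The ciliated list had a median of -0.21 for bond-disrupted against bonded animals, with 1 of 26 genes at an unadjusted p under 0.05, Dnai1. The 8 smooth muscle markers had a median of -0.52 in that comparison, with 4 of 8 at an unadjusted p under 0.05, beside 5.88% of all genes, and Myh11, the smooth muscle myosin, stood at 53.7 ± 24.5 against 77.3 ± 20.2 FPKM (SD, n = 6 and 6; limma adjusted p = 0.807). The medians in the same comparison were 0.17 for 9 type 2 alveolar, 0.20 for 10 type 1 alveolar, 0.17 for 9 neuroendocrine and tuft cell, -0.22 for 7 cardiac muscle, -0.05 for 5 cartilage and 0.04 for 3 basal cell markers. Of the gland list 2 genes and of the oesophagus and thyroid list 1 gene could be tested, with medians of -0.24 and 0.02. The part of these cell types in the levels of the secretory genes was not tested.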

How the data were processed

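Lung RNA of 17 animals was sequenced (directional library kit), and the submitters' processing notes name FastQC, Trim Galore 0.4.5, STAR 2.7.2, SAMtools 1.5, and featureCounts with Subread 1.5.3; the genome build was not given in the sources used here, so no coordinates are printed. The authors deposited FPKM per gene and animal. Each deposited FPKM had been divided by the length of another gene, displaced by 1 row per column. Depths were solved from short RNAs of known RefSeq length, and lengths mainly from the condition that values are whole reads. Candidate lengths were capped at the RefSeq span and also weighed by the level of the same genes in other libraries. Of 27787 lengths 26641 settled, and 98.4% of 353885 values lay within 0.01 of a whole read. Of 1593 short RNA lengths 1584 were equal to RefSeq. FPKM was then recomputed with the gene's own length. This lowered the median SD of log2(FPKM + 1) over 13705 genes with at least 100 reads on average from 1.36 to 0.19. These figures are partly built into the fit and are no independent check of it. The method and test were run on simulated data with changes between virgin and bonded animals (14681 genes). There limma called 97 of 100 genes changed 4-fold, 98 of 100 changed 8-fold and 2 unchanged genes. The simulated spread between animals was capped below that of Bpifb1 and Scgb3a1 (within-group SD 2.56 and 2.24 in log2). Changed genes were also drawn from levels above the mean of Muc5b. These rates therefore do not apply to those secretory genes.

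Groups were taken from the labels. The test was limma 3.58.1 in R 4.3.3 on log2(FPKM + 1), eBayes without trend, on the 15074 genes that reached 1 FPKM somewhere. Relations used permutation tests (100000) over 21 pairs, since Bpifa1 has no row. Members and lists were chosen with earlier results of these data known. Outside the 8 genes, those named were the gene of lowest unadjusted p in a list and the 3 genes most like each member; other genes named were chosen after their values were seen. Alternatives were the values as deposited, an additive removal of the shift, pseudocounts, filters, normalizations, a variance trend, voom, a stricter threshold, the 2 groups alone, a family block and leaving out each animal.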

Additional observations from a re-analysis of the deposited data

Results flagged for a closer look

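Of the 21 sets of animals examined (7 genes in 3 groups), 2 held an animal far from the rest, where chance flags about 1 in 20 if values are spread normally, which these linear FPKM need not be. Scgb3a1 in bonded animals was highest in B2, at 329 FPKM against 88.6 FPKM in the next animal, and this gap was 0.735 of the whole range of the group. Agr2 in bonded animals was highest in B6, at 33.9 FPKM against 12.9 FPKM in the next animal, a gap of 0.655 of the range. On log2(FPKM + 1) the same gaps were 0.278 and 0.370 of the range.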

How the results depend on the processing

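The fold changes of the 6 secretory genes tested (18 results) were computed under 31 other settings, in 558 values, and none was called (lowest adjusted p 0.583), while 70 values had the other sign from the reported value. With the values as deposited, limma called 40 genes (bond-disrupted against bonded), 113 (virgin against bonded), 35 (virgin against bond-disrupted) and 126 (F test), none of them a secretory gene, 0 of 21 relations between secretory genes and 1 of 7 with the ciliated level; these values carry other genes' lengths. Leaving out each animal in turn gave 0 to 1, 0 to 1, 0 to 0 and 0 to 2 called genes, 10 to 13 relations between secretory genes and 3 to 5 with the ciliated level. Without B4, LOC128094431 was called (adjusted p = 0.0629 bond-disrupted and 0.011 virgin against bonded, 0.0193 in the F test), with Nmur1 in the F test; without B6, Ripor3 was called in the F test (adjusted p = 0.0158). The cause was not tested.

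The number shared by relatives was also fitted as a replicate block, which called 0 genes in the 3 comparisons and in the F test, as did voom with that block, an alternative chosen after seeing the data. Of 16 pairs with the same number, 7 had a correlation of deviations from the group means over 0.1 (mean 0.066, range -0.35 to 0.44), and in 11 of 32 cases the nearest animal of another group had the same number. Over the 7 secretory genes alone the same correlation was over 0.1 in 10 of 16 pairs (mean 0.22, range -0.74 to 0.92), with 0.91, 0.90 and 0.92 among B4, BD4 and V4. Each of the latter rests on 7 genes, of which Bpifb1 and Scgb3a1 vary most and weigh most. Animals with different numbers were not counted in this way, so these counts have no background beside them, and a family effect on them was not tested. The numbers mark families by design, and the block changed no call.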

Other observations

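The genes of this paragraph, some of which are tied to goblet cells, were chosen after their values were seen. Of the 15 measured mucus and secretory defence genes 4 were highest in B6, 5 in BD6 and 0 in B2, and of the 21 regulators of secretory cells 4 were highest in V6 and 3 each in B6, BD1 and BD2. By the mean log2(FPKM + 1) of the mucus list, B6 (3.58) and B2 (3.41), the animals with the highest Muc5b, came before B4 (3.12). That mean includes Clca1, described below, on which the lead of B6 and B2 largely rests. For the regulators V6 and B6 were level (3.88 each). B6 was also highest for 7 of 8 smooth muscle and 6 of 7 cardiac muscle markers, and the part of tissue make-up in these values was not tested. Clca1, a secreted protein of goblet cell mucus, was at 173 FPKM (21539 reads) in B6 and 27.2 FPKM (2908 reads) in B2, and at no more than 2.53 FPKM (B4) in the other animals. Spdef, a transcription factor that directs goblet cells, was at 2.21 FPKM in B6 and 1.10 FPKM in B2, and at no more than 0.35 FPKM (V4) elsewhere. Ern2, the stress sensor of mucus-making cells, had 140 reads in B6, 15 in B2 and 10 in BD6, with none in the other libraries. Foxa3, a transcription factor of the same cells, had 48 reads in B6 and 34 in BD6, none in B2, and at most 6 (BD4) elsewhere. Il13 was at 0.06 FPKM in B6. Muc5ac remained low in B6, at 38 reads.

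BD6, which ranked 2 for Scgb3a1 and 3 for Scgb3a2, was the lung with the highest Col2a1. This gene, a collagen of cartilage and of the rings of large airways, was at 14.2 FPKM (3717 reads) in BD6 and at no more than 0.12 FPKM (B6) elsewhere. Col2a1 was the 1 of 9 measured cartilage markers that was highest in BD6, where Matn3 was at 1.498, Cnmd at 7.39, Sox9 at 3.94 and Comp at 0.75 FPKM. Over all animals the other cartilage genes differed in level, with Acan at no more than 0.021, Col9a1 at no more than 0.049 and Matn1 at no more than 0.69 FPKM, but Matn3 at up to 12.8, Cnmd at 2.93 to 10.97 and Sox9 at 1.90 to 4.53 FPKM. BD6 also had the highest Pigr, the receptor that carries antibodies across epithelium, at 557 FPKM, the highest chloride exchanger Slc26a4 at 3.98 FPKM and the highest water channel Aqp3 at 11.1 FPKM. The next highest Pigr levels were 360 FPKM in BD3 and 311 FPKM in B3, and the same animals followed BD6 for Slc26a4 (3.25 and 3.38 FPKM). BD6, BD3 and B3 also had the highest mean log2(FPKM + 1) of the type 2 alveolar markers (9.19, 9.05 and 8.87), and BD6 was highest for 4 of these 9 markers. The part of these cells in the Pigr and Slc26a4 levels was not tested. B3 and BD3 ranked 15 and 14 of 17 for Bpifb1.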
